A study of Mus musculus with 5 samples.

Results

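The genes described here are 36 that copy DNA or divide the cell, out of 27998 features measured. They were taken by symbol from a fixed list, and all 36 were found. Of these, 15 act in replication and 21 in mitosis. Single-cell RNA profiles came from whole testes of synchronized mice, with 1 library for each of 0 h (labelled Control), 144 h (EP1), 350.4 h (EP2), 556.8 h (EP3) and 763.2 h (EP4). The EP times were set at returning stages VIII-IX of the epithelial cycle. The labels used here name no strain, age, number of animals or synchronizing agent. Without replicate libraries nothing below was tested, and time cannot be told apart from library. Intervals are exact 95% intervals and cover counting error only.

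A cell copies its DNA once per division. Helicase subunits are loaded on origins in G1, forks run through S phase, and kinases, kinetochores and the spindle then separate the chromosomes. In the testis, spermatogonia divide by mitosis, spermatocytes replicate once and go through the meiotic divisions without a further S phase, and spermatids do not divide. Sertoli cells, the somatic nurse cells of the tubule, multiply before puberty and then stop.

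The libraries held 7441 to 11987 barcodes and 75578147 to 118147393 UMIs, and 4721 to 11291 cells per library were kept. Any 2 libraries shared 11 to 37 barcode sequences. Cells were clustered without the 36 genes and named by markers, so each class name below means cells like that type. Sertoli-like cells numbered 2954, 2377, 568, 46 and 16 in time order, and germ cells 2330, 2939, 3130, 8046 and 10518. Classes with under 20 cells gave no value, which removed Sertoli-like cells at 763.2 h. Sertoli markers summed to 18461 CPM in Sertoli-like cells at 0 h and to 1431 CPM in germ cells there. Levels are CPM of the UMIs summed over a class. A gene was called higher or lower where the ratio was at least 2-fold, its interval excluded 1 and at least 20 UMIs were seen over both sums.

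Promoters are shown for 6 of the genes because the replication and mitosis genes differ in the short motifs they hold. Only matches wholly inside the 170 bases before the start were considered for printing. Among these, the 3 licensing genes have the E2F-type match nearest to the start, and the 3 mitosis genes the CHR (cell cycle genes homology region) match nearest to it. Matches at or after the start, such as those of Mcm3 and Cdt1 (E2F-type) and Cenpf and Ttk (CHR), are not printed. Prc1 has a CHR match that overlaps the start of an annotated promoter and lies at -30 to -25 from the start of another. The latter is farther out than the nearest match of each printed mitosis gene. Each stretch is the 170 bases before the transcription start, from RefSeq on GRCm38.p6, 5′ to 3′ on the gene's strand, with the matches in capitals. Mcm6 lies at chr1:128359706-128359875, minus strand, Cdc6 at chr11:98907981-98908150, plus strand and Mcm5 at chr8:75109339-75109508, plus strand. Capitals mark the E2F-type motif.
Mcm6: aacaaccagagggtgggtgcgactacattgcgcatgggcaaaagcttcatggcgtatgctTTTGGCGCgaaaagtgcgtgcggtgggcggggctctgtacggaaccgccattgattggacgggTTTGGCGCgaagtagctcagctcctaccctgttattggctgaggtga
Cdc6: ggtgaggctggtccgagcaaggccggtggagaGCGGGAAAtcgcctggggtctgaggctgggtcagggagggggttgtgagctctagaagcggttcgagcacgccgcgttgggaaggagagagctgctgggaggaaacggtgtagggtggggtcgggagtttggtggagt
Mcm5: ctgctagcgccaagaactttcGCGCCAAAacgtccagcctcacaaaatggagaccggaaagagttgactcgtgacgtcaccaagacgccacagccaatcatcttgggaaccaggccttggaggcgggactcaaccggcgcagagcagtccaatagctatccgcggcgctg

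Cdk1 lies at chr10:69352913-69353082, minus strand, Cdc20 at chr4:118437344-118437513, minus strand and Top2a at chr11:99024190-99024359, minus strand. Capitals mark the CHR motif.
Cdk1: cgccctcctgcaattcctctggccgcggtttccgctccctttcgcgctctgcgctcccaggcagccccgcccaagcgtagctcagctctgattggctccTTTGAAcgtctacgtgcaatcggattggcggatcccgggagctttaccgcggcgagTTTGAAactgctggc
Cdc20: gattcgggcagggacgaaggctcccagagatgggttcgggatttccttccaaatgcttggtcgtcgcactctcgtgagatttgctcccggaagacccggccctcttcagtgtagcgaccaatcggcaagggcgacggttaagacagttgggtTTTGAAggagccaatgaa
Top2a: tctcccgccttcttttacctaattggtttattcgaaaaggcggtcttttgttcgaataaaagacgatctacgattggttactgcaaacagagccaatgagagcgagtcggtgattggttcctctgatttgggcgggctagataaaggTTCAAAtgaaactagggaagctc

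Promoters of 31 of the 36 genes were in the table. The E2F-type motif was searched as TTTCCCGC, TTTCCCGG, TTTGGCGC or TTTGGCGG on both strands, from 250 bases before to 50 after the start. It was found in 7 of 13 replication genes (Cdc6, Cdt1, Hells, Mcm3, Mcm5, Mcm6 and Mcm7) and in 1 of 18 mitosis genes (Birc5), against 3.79% of all 27025 genes. The CHR motif, TTTGAA on both strands, was found in 14 of 18 mitosis genes and in 2 of 13 replication genes (Cdc45 and Mcm2), against 20.2% of all genes. The CCAAT motif on both strands was found in 15 of 18 mitosis and 9 of 13 replication genes, against 41.1%. Within the 100 bases before the start, CHR matches were left in 6 of 18 mitosis genes against 6.76% of all genes, and E2F-type matches in 2 of 13 replication genes against 1.32%. These are matches of letters and do not show binding.

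The summed level of the 36 genes moved in opposite directions in Sertoli-like and germ cells over the first interval. The 21 mitosis genes summed to 1619, 247, 588 and 773 CPM in Sertoli-like cells from 0 to 556.8 h. The 15 replication genes summed to 740, 234, 290 and 198 CPM in the same order. Sertoli-like cells thus had their highest level of both groups at 0 h, and after 144 h the mitosis sum was larger while the replication sum stayed low. In germ cells the mitosis genes summed to 2016, 3780, 3800, 2409 and 1840 CPM from 0 to 763.2 h, and the replication genes to 1393, 2916, 1620, 605 and 484 CPM. The replication sum of germ cells peaked at 144 h, and the mitosis sum was near its highest value at both 144 and 350.4 h.

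**Figure D1:**
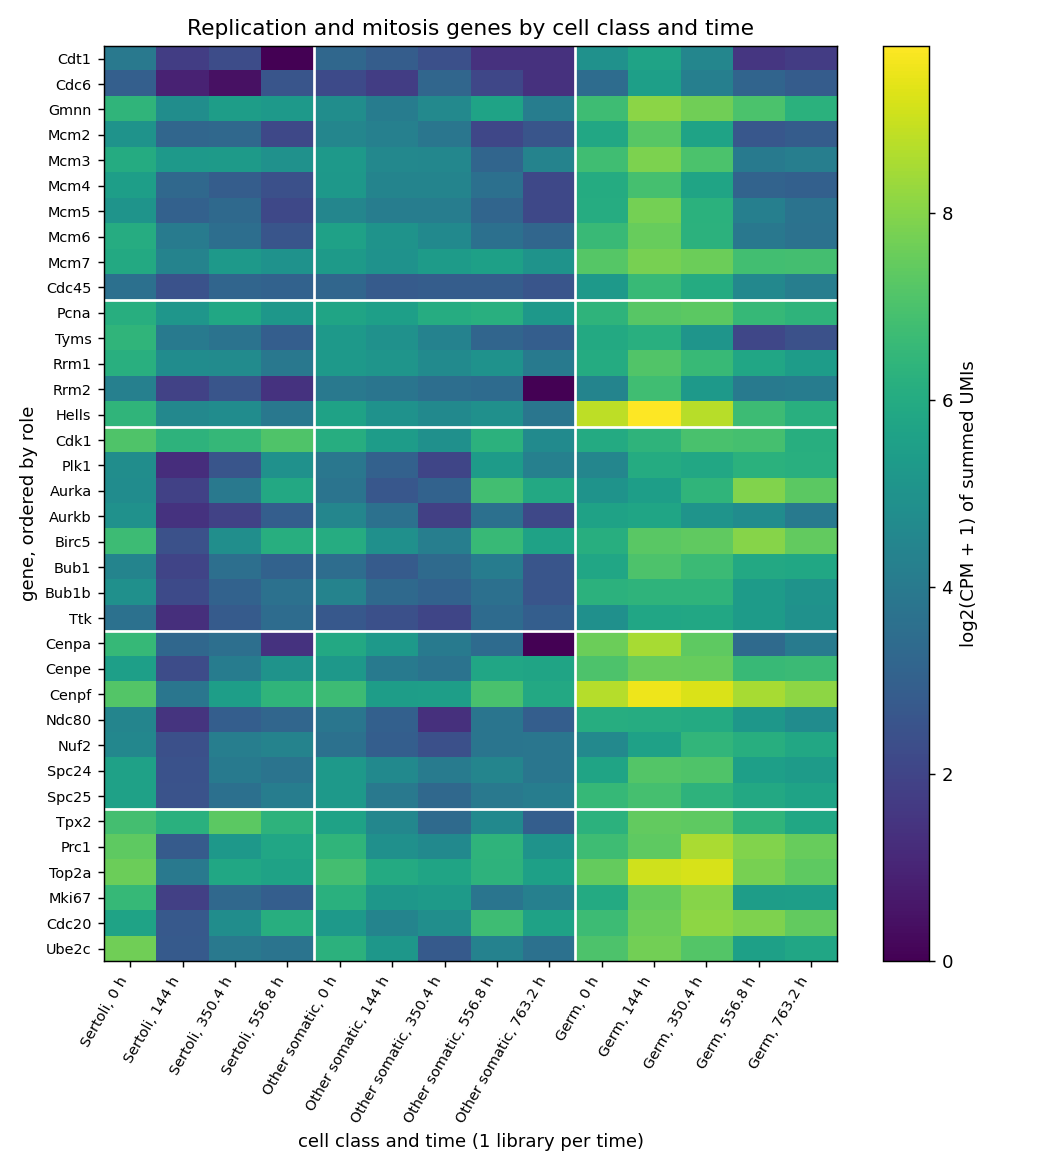
Each row is a gene, ordered by role, and each column a cell class at one time; colour gives log2(CPM + 1) of summed UMIs, 1 library per time. In Sertoli-like cells the mitosis genes are darkest at 144 h, where they sum to 247 CPM. The replication genes have their lowest sum there at 556.8 h (198.5 CPM). Germ cells are brightest at 144 and 350.4 h.

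In Sertoli-like cells, 33 of the 36 genes were called lower at 144 h than at 0 h and none was higher, where 20.1% of 13968 features were lower and 10.8% higher. The median log2 ratio was -2.80 for the 36 genes and -0.11 for all features. Replication genes were lower in 14 of 15 (median -1.89) and mitosis genes in 19 of 21 (median -3.42). The class was held by different clusters at the 2 times: clusters 0, 1, 7, 9 and 18 at 0 h and clusters 29, 30, 31 and 33 at 144 h, with no cluster of 20 or more cells in both. Without the 333 cells of cluster 0, which is led by histone genes, 32 were lower and none higher, against 20.0% and 10.7% of features. When doublets were kept and the cells clustered anew, 27 were lower. The 3 genes between the limits were Mcm3, Cdk1 and Tpx2.

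Among the licensing genes, Mcm2, a subunit of the replicative helicase, had 31.2, 8.43, 8.79 and 3.34 CPM from 0 to 556.8 h, and its ratio of 144 to 0 h was 0.27 (0.235 to 0.310). Mcm3, another subunit, had 64.0, 38.1 and 39.4 CPM up to 350.4 h, with a ratio of 0.595 (0.554 to 0.640). The remaining subunits Mcm4, Mcm5, Mcm6 and Mcm7 had ratios of 0.207 to 0.327. Mcm3 therefore kept more of its level than the other subunits in the same cells. Cdc6, which loads the helicase, had 6.77 CPM at 0 h and 0.936 at 144 h. Its partner Cdt1 had 14.7 and 2.44 CPM, and geminin (Gmnn), the inhibitor of Cdt1, had 83.0 and 26.9 CPM. Cdc45, which completes the active helicase, had 11.3 and 4.58 CPM.

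The fork and nucleotide genes were all at least 2-fold lower. Pcna, the sliding clamp, was at the limit, with 68.8 CPM at 0 h and 33.9 at 144 h and a ratio of 0.492 (0.457 to 0.530). Tyms, which makes thymidylate, had 84.0 and 15.3 CPM. Of the ribonucleotide reductase subunits, Rrm1 had 71.9 and 26.2 CPM and Rrm2 had 18.2 and 2.78 CPM. Hells, a chromatin remodeller, had 83.7 and 22.8 CPM.

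The mitosis genes were lower by more. Mki67, which coats mitotic chromosomes, had 93.2, 2.61, 8.79 and 6.67 CPM from 0 to 556.8 h, and its ratio of 144 to 0 h was 0.028 (0.0221 to 0.035). Ube2c, the ubiquitin-conjugating enzyme of the anaphase-promoting complex, had 203, 5.85, 14.4 and 12.5 CPM and a ratio of 0.0288 (0.0246 to 0.0334). Prc1, which bundles microtubules of the central spindle, had 165, 6.05, 36.2 and 54.2 CPM. All 7 centromere and kinetochore genes were lower, with ratios from 0.0838 for Cenpe, a kinetochore motor, to 0.196 for Nuf2, a subunit of the NDC80 complex. Plk1, a mitotic kinase, had a ratio of 0.0540 and Aurkb, the kinase of the chromosomal passenger complex, one of 0.0562.

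Cdk1 and Tpx2 differed by less than 2-fold between 0 and 144 h. Cdk1, the kinase that drives entry into mitosis, had 134, 79.8, 90.7 and 134 CPM in Sertoli-like cells from 0 to 556.8 h, and 80.2 CPM in germ cells at 144 h. Tpx2, a spindle assembly factor that activates Aurka, had 116, 73.2, 159 and 78.4 CPM. Aurka itself had 25.8, 2.68, 14.4 and 59.2 CPM. After thinning every cell to 2000 UMIs, Cdk1 was seen in 16.1% of 1710 Sertoli-like cells at 144 h and Tpx2 in 13.5%, while Mki67 was seen in 0.468% and Ube2c in 1.29%. Without thinning the shares at 144 h were 47.1% for Cdk1, 43.3% for Tpx2, 2.82% for Mki67 and 6.65% for Ube2c, at a median of 9693 UMIs per cell.

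**Figure D2:**
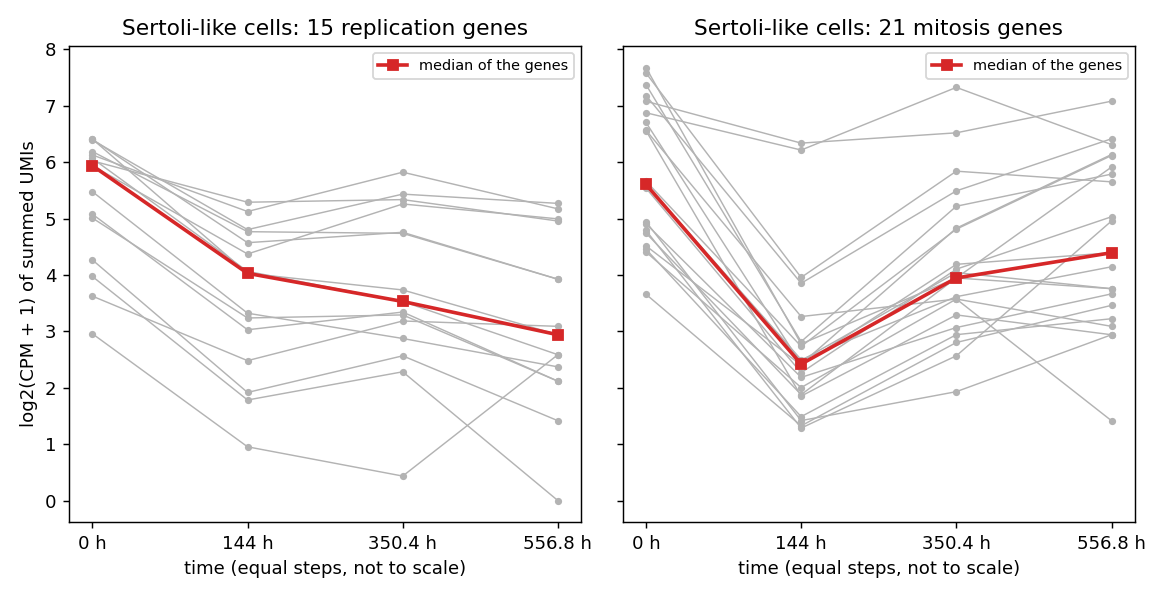
Each grey line is a gene in Sertoli-like cells, on log2(CPM + 1) of summed UMIs, and the red line is the median of the genes; times are equally spaced and not to scale. The median of the mitosis genes is lowest at 144 h, where Cdk1 (79.8 CPM) and Tpx2 (73.2 CPM) are the highest lines.

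The level at 0 h was unevenly spread over Sertoli-like cells. At 2000 UMIs per cell, 2531 cells remained and 423 shallower ones were left out. Of these, 331 (13.1%, interval 11.8 to 14.5%) had at least 10 UMIs of the mitosis genes, 34.9% had none and the median was 1. Of 226 barcodes with red blood cell markers, set beside them here, 7.52% (4.44 to 11.8%) had at least 10, 19.9% had none and the median was 2. At 5000 UMIs per cell the shares at 10 or more were 25.1% (22.9 to 27.4%) and 11.9% (4.91 to 22.9%). The limit of 10 cuts a continuous range, since 314 Sertoli-like cells had 7 to 13 at 2000 UMIs. At 144 h 0 of 1710 cells reached 10, with an upper bound of 0.215%, and the highest cell had 7. Cells with a UMI of Top2a, the topoisomerase that disentangles chromosomes, also held Mki67 in 29.1% of cases at 0 h, against 6.78% of cells without Top2a. The same shares were 51.4% and 13.5% for Prc1.

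Free RNA can give such UMIs to any barcode. Barcodes with red blood cell markers held Mki67 in 6.19%, Top2a in 14.6%, Ube2c in 25.7% and Cdk1 in 22.1% at 2000 UMIs. Sertoli-like cells held them in 12.3%, 24.8%, 26.6% and 22.7%. The Ube2c and Cdk1 shares were thus no higher than in these barcodes beyond their intervals. Ube2c was seen in 54.8% of Sertoli-like cells with Top2a at 0 h and in 17.3% of those without. The part of free RNA in these shares was not tested. Median depths before thinning were 2394 and 5078 UMIs. The red-blood-cell-like barcodes also carried Sertoli markers at 7662 CPM, against 18461 in Sertoli-like, 1728 in other somatic and 1431 in germ cells at 0 h. They are thus no clean measure of free RNA.

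**Figure D3:**
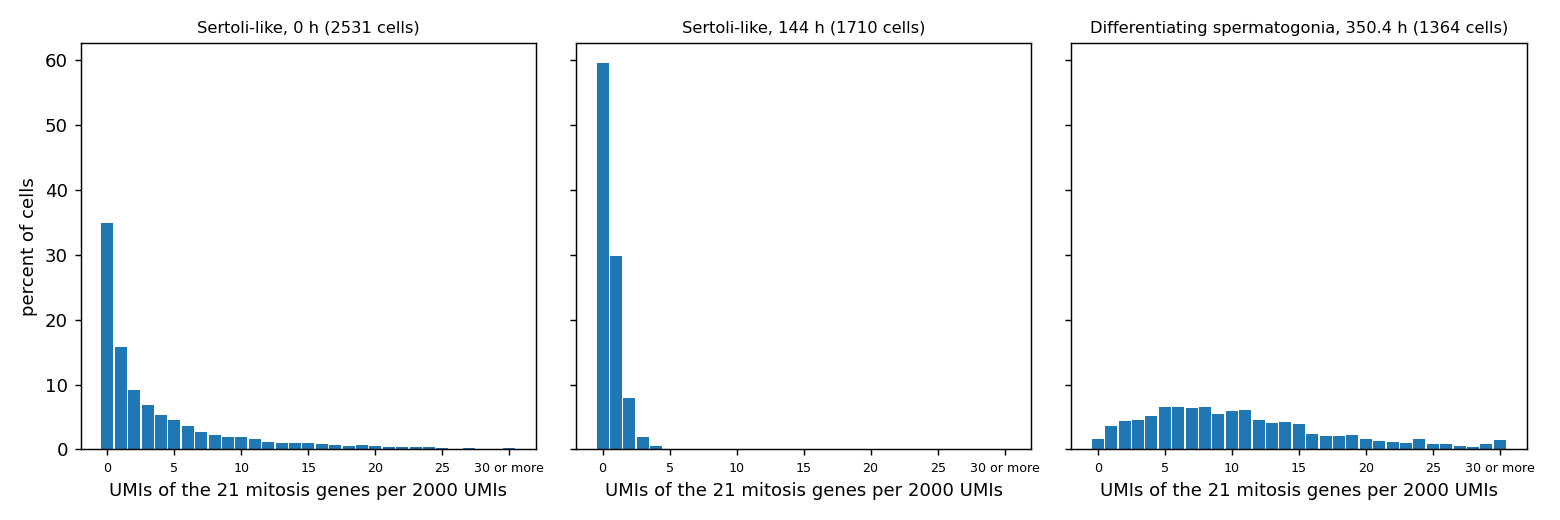
Bars give the percent of cells (y axis) with each number of UMIs of the 21 mitosis genes (x axis) after thinning each cell to 2000 UMIs. Sertoli-like cells at 0 h reach past 30, those at 144 h end at 7, and differentiating spermatogonia at 350.4 h have 49.0% of cells at 10 or more.

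After 144 h the 2 gene groups parted in Sertoli-like cells. From 144 to 350.4 h, 18 of 21 mitosis genes were at least 2-fold higher (median log2 ratio 1.77) and 0 of 15 replication genes (median 0.19), where 13.7% of features were higher and 6.52% lower. Birc5, the survivin subunit of the chromosomal passenger complex, had 103, 4.35, 27.4 and 69.2 CPM from 0 to 556.8 h. Plk1 had 26.6, 1.44 and 4.92 CPM up to 350.4 h. Cdc20, the activator of the anaphase-promoting complex, had 49.6, 5.65, 27.1 and 68.4 CPM over the 4 times. Different clusters held most of the class at these later times. Cluster 35, with a median of 1320 UMIs, gave 500 of 568 cells at 350.4 h. Cluster 40, with a median of 29085 UMIs, gave 57 cells there and 41 of 46 at 556.8 h. From 350.4 to 556.8 h, Aurka, Birc5, Plk1 and Cdc20 were higher and Cenpa and Tpx2 lower, of 32 genes measured, against 12.1% and 5.17% of features. Both counts were thus near the shares of all features.

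These later values move with depth and with germ RNA. Without clusters of a median under 2000 UMIs, 61 Sertoli-like cells were left at 350.4 h and 9 genes were higher than at 144 h, all in mitosis; with doublets kept, 5 were. The 5 markers of all germ cells (Ddx4, Dazl, Tex15, Mael and Tdrd1) summed to 65.3, 83.9, 324 and 379 CPM in Sertoli-like cells from 0 to 556.8 h, against 1799, 2557, 2546 and 1256 CPM in germ cells. Their part in the result was not tested. At 350.4 and 556.8 h no Sertoli-like cell had 10 mitosis UMIs, of 153 and 46 cells at 2000 UMIs, with upper bounds of 2.38% and 7.71%. At 5000 UMIs 1 of 70 and 1 of 46 cells had 10, as did 2 of 1336 at 144 h.

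Other somatic cells (Leydig, myoid, stromal, endothelial and macrophage classes, with 106 cells of no named type among 2137 at 0 h) had 10 of 21 mitosis genes and 0 of 15 replication genes called lower at 144 than at 0 h and none higher, against 6.09% and 7.49% of features. The mitosis sum was 948 and 466 CPM. Prc1 had 83.5 and 29.3 CPM, and Mki67 72.7 and 35.3 CPM. At 0 h these cells had 7 genes lower than Sertoli-like cells (Cdk1, Aurka, Tyms, Ube2c, Tpx2, Ttk and Gmnn) and none higher, against 14.2% and 20.9% of features. Gmnn had 26.9 CPM here and 83.0 in Sertoli-like cells. Without cluster 0 of the Sertoli-like cells, 1 gene was lower. The share of cells with at least 10 mitosis UMIs at 2000 UMIs was 7.06% (5.86 to 8.41%) of 1630 cells at 0 h and 1.87% (1.15 to 2.87%) of 1070 at 144 h. The share at 0 h was no higher than the 7.52% of red-blood-cell-like barcodes, but the spread differed. Other somatic cells had a median of 0, 58.8% with none and at most 37 mitosis UMIs, against 2, 19.9% and 13 in those barcodes. The part of free RNA in this share was not tested. Other settings gave 1 to 25 genes lower at 144 h.

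The myoid class turned on 10 cells, and different clusters held it at the 2 times. Cluster 4 held 250 of its 260 cells at 0 h, and cluster 23 held 382 of 387 at 144 h. The 10 cells are those of cluster 23 at 0 h. In peritubular-myoid-like cells, 13 of 21 mitosis genes were lower at 144 h and none was higher, against 3.62% and 7.66% of features, but the 10 cells held 83.9% of the class's mitosis UMIs. They ranged from 4394 to 16961 CPM for the mitosis genes, and cluster 23 at 144 h from 0 to 16874 CPM. Without the 10 cells 0 genes were lower and 16 of 34 were higher (median log2 ratio 1.25), against 2.82% and 8.5% of features. That comparison sets cluster 4 at 0 h against cells mostly of cluster 23 at 144 h and leaves out cells at 0 h only, and neither cluster held 20 cells at both times. Without the 10 cells the other somatic cells together had 5 genes lower and none higher, against 5.87% and 7.38% of features, and 13 genes lower than Sertoli-like cells at 0 h. Cells with at least 10 mitosis UMIs at 2000 UMIs numbered 11 of 259 (4.25%, 2.14 to 7.47%) at 0 h and 4 of 387 (1.03%, 0.282 to 2.63%) at 144 h. Leydig-like cells had 12 of 20 measured mitosis genes lower and 0 of 14 replication genes, against 10.1% of features, and none higher, against 4.32%. Stromal-like cells had 1 of 36 genes lower (Cenpf), against 5.6%, and none higher, against 5.9%. Macrophage-like cells had 16 of 32 genes lower, against 12.1%, and none higher, against 13.9%. They numbered 271 with a median of 2011 UMIs at 0 h, and 39 with a median of 10990 at 144 h. At 2000 UMIs, 17.3% (11.4 to 24.6%) of 139 cells at 0 h had at least 10 mitosis UMIs, and the median was 2. At 144 h, 27 cells together held 56 mitosis UMIs at 2000 UMIs per cell, and 1 cell held 36 of them.

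In germ cells, 16 of the 36 genes were called higher at 144 than at 0 h and none was lower, against 16.0% and 19.5% of features. Rrm2 had 20.5 and 109 CPM, Cdc6 9.93 and 45.3 CPM and Mcm5 65.8 and 213 CPM. The classes of germ cells differed between these libraries, with 2297 undifferentiated spermatogonia at 0 h and 1751 differentiating ones at 144 h. Within undifferentiated spermatogonia 10 genes were higher and none was lower, against 4.43% and 8.22% of features, among them Mcm2 with 56.6 and 152 CPM. Depth and clusters of this class also differed, with a median of 3752 UMIs at 0 h and 27193.5 at 144 h. Cluster 12 gave 244 of its 2297 cells at 0 h and 268 of 370 at 144 h. At 144 h germ cells exceeded Sertoli-like cells at least 2-fold for 35 of 36 genes, with Cdk1 the exception, against 41.2% of features. None was lower there, against 22.3%. At 0 h they did for 13, against 28.1%, and Cdk1 was lower in germ cells, against 21.9%. Without cluster 0 of the Sertoli-like cells, 16 were higher and none lower at 0 h.

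Later, the replication genes were lower first. From 144 to 350.4 h 9 of 15 replication genes and 1 of 21 mitosis genes (Cenpa) were lower in germ cells, against 22.6% of features, and Prc1 was higher, against 24.0%. From 350.4 to 556.8 h 11 replication and 6 mitosis genes were lower, against 34.9%, and Aurka was higher, against 27.3%, with 82.8 and 243 CPM. In both intervals the count of lower mitosis genes was below the share of all features. No gene was called between 556.8 and 763.2 h, where 4.48% of features were lower and 13.9% higher. Pachytene or later spermatocytes numbered 0, 87, 4493 and 1039 from 144 to 763.2 h, so these sums mix stages that differ between libraries.

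Entry into meiosis was compared within libraries. At 144 h differentiating spermatogonia had 4 genes higher than undifferentiated ones (Rrm2, Plk1, Spc24 and Cdc6) and none lower, against 10.7% and 17.7% of features. The count of higher genes was thus near the share of all features. Rrm2 had 34.6 CPM in undifferentiated and 105 in differentiating spermatogonia. The 30 early meiotic cells at 144 h had 13 genes lower than undifferentiated spermatogonia, 10 of them in replication, and 4 higher, against 23.5% and 16.0% of features. The 4 higher genes were Cdk1 (82.7 and 346 CPM), Cdc20 (152 and 544 CPM), Nuf2 (38.1 and 139 CPM) and Aurka (44.4 and 113 CPM). Other settings gave 4 to 16 genes lower. A further cluster of 845 cells led by Stra8, which is induced at meiotic entry, fell in no stage and is not in these values. Another cluster led by Stra8, with early meiotic markers as its second score, is in the differentiating class and gave 793 of its 1751 cells at 144 h. At 350.4 h early meiotic cells had 24 genes lower than differentiating spermatogonia and none higher, against 33.4% and 23.3% of features, and 12 of the 24 were replication genes. Mki67 had 554 CPM in differentiating and 64.8 in early meiotic cells there, and Prc1 341 and 349 CPM.

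The library at 763.2 h holds 6 germ classes and allows a comparison within 1 library. Of its 10518 germ cells, 4428 fell in no stage and are outside the 6 classes, with 23623477 of 108644028 germ UMIs. At 350.4 h 566 of 3130 cells did, with 34904991 of 74421017 UMIs. All 15 replication genes were highest in differentiating spermatogonia. Of the mitosis genes, 10 were highest there, 2 in undifferentiated spermatogonia (Aurkb and Bub1b), 5 in early meiotic spermatocytes (Bub1, Cdc20, Cdk1, Nuf2 and Top2a) and 4 in pachytene or later spermatocytes (Aurka, Birc5, Plk1 and Prc1). Some of these peaks were narrow. Prc1 had 309 CPM in pachytene and 298 in differentiating cells, and Top2a 805 in early meiotic and 734 in differentiating cells. Aurkb had 61.7 and 59.8 CPM in undifferentiated and differentiating spermatogonia, and Bub1b 81.0 and 79.1. At 350.4 h 31 of the 36 genes peaked in the same class, and Aurkb, Bub1b, Pcna, Prc1 and Top2a did not. The undifferentiated class held 35 cells at 763.2 h, so its values are the least precise.

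The helicase subunits did not behave alike. From undifferentiated and differentiating spermatogonia through early meiotic and pachytene cells to round and elongating spermatids, Mcm2 had 67.5, 108, 4.73, 0.42, 0.269 and 0.0778 CPM. Mcm3 had 102, 196, 51.8, 1.07, 0.458 and 0.544 CPM. Mcm7 had 176, 188, 85.5, 145, 104 and 25.5 CPM. Mcm7 alone among the 6 subunits thus kept over 100 CPM in pachytene cells and round spermatids, and Mcm5 had 2.14 and 3.28 CPM there. Gmnn had 227, 81.6 and 111 CPM in differentiating, early meiotic and pachytene cells, while Cdt1, which it inhibits, had 41.3, 1.11 and 0.115 CPM. Pcna had 123, 81.6 and 101 CPM in these classes and Rrm1 had 147, 45.7 and 70.8 CPM. Hells had 807 and 356 CPM in differentiating and early meiotic cells. Tyms had 72.3, 1.95 and 0.763 CPM in these and pachytene cells.

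The centromere and kinetochore genes also split. Cenpa, the histone variant that marks centromeres, had 149, 296, 12.3, 0.649, 0.619 and 0.855 CPM over the 6 classes. Cenpe had 183, 299, 204, 162, 54.9 and 12.2 CPM. Nuf2 had 23.2, 62.1, 90.2, 87.5, 34.1 and 7.54 CPM, and Ndc80, its partner, 83.0, 88.9, 36.5, 39.7, 8.59 and 3.50 CPM. Cenpa was thus under 1 CPM from the pachytene class on, where Cenpe and Nuf2 were at 7.54 CPM or more.

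**Figure D4:**
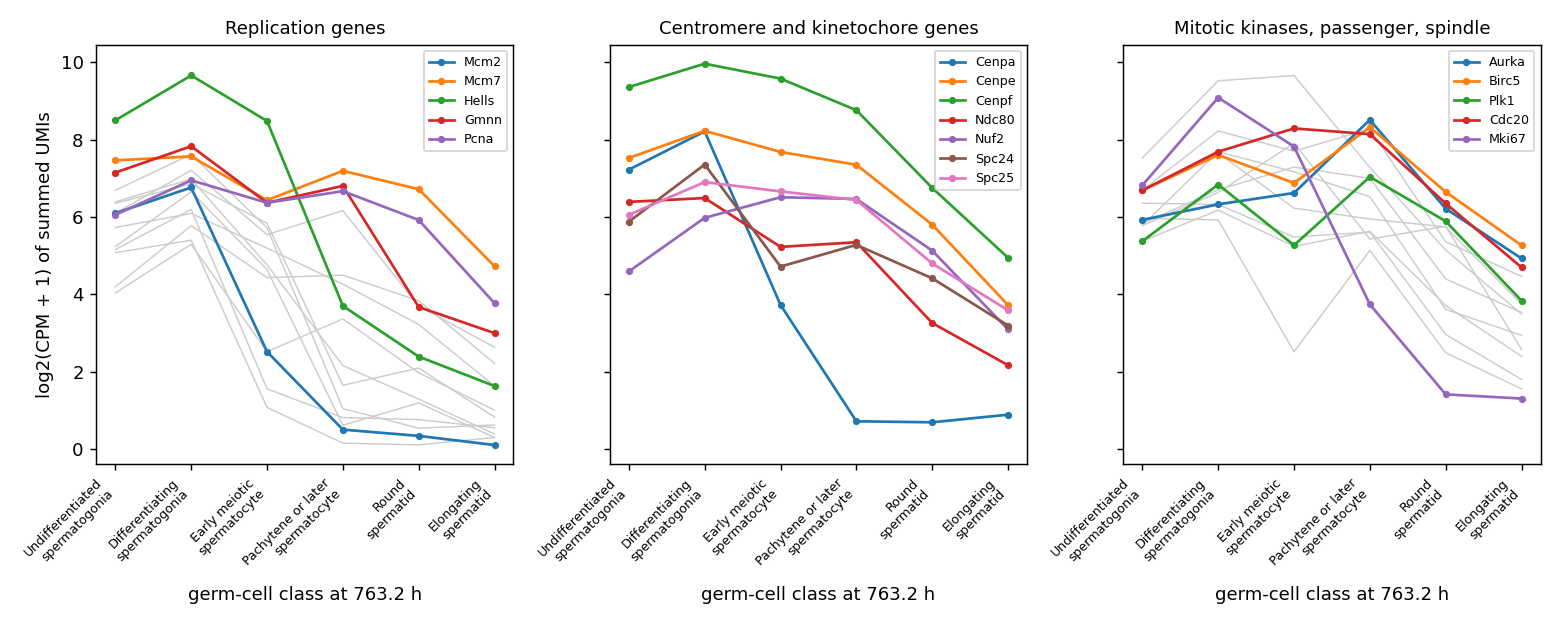
Lines give log2(CPM + 1) of summed UMIs (y axis) of each gene in the 6 germ classes of the 763.2 h library (x axis); named genes are coloured and the others grey. Mcm2 and Cenpa drop by the pachytene class, while Mcm7 stays at 145 CPM and Aurka reaches 364 CPM there.

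Of the 8 kinase and chromosomal passenger genes, 5 were highest in a spermatocyte class, as were 3 of the 6 spindle, chromosome structure and anaphase genes (Cdc20, Top2a and Prc1). Mki67, Tpx2 and Ube2c were highest in differentiating spermatogonia. Aurka had 59.8, 79.3, 97.5, 364, 73.3 and 29.5 CPM over the 6 classes, and Birc5 102, 194, 117, 319, 99.4 and 37.5 CPM. Plk1 had 40.5, 114, 37.6, 130.5, 58.3 and 13.3 CPM. Aurkb had 61.7, 59.8, 4.73, 34.2, 4.63 and 1.94 CPM, so it was low in early meiotic cells and higher again in pachytene cells. Mki67 had 112, 543, 225, 12.4, 1.67 and 1.48 CPM. In pachytene or later cells against differentiating spermatogonia, 22 of 36 genes were lower and 1 higher, where 40.6% of features were lower and 24.8% higher. Replication genes were lower in 13 of 15, with a median log2 ratio of -5.17. Mitosis genes were lower in 9 of 21, near the share of all features, with a median of -0.81. All features had a median of -0.47.

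At 556.8 h, pachytene or later cells had 10 of 15 replication and 6 of 21 mitosis genes lower than early meiotic cells, against 35.6% of features. The mitosis count was thus below the share of all features. Aurka and Aurkb were higher, against 19.3%. Round spermatids had 24 of 35 genes lower than pachytene cells at 763.2 h, against 29.3%, and Mcm4 was higher, against 31.2%, from 0.534 to 1.29 CPM. Elongating spermatids had 26 of 34 genes lower than round spermatids, against 64% of features, and none higher, against 7.61%. The median log2 ratio of -1.48 was near the -1.61 of all features.

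Of 7 measured paralogues of the members, 2 were lower and 1 higher in Sertoli-like cells at 144 than at 0 h (median log2 ratio -0.08), and 4 were higher at 350.4 than at 144 h (median 1.07, against 0.99 for the 36 genes). The shares of all features are those given above for these intervals. Top2b, the paralogue of Top2a, had 119, 113, 104 and 113 CPM in Sertoli-like cells from 0 to 556.8 h, while Top2a had 190, 14.5, 56.2 and 49.2 CPM. In the 763.2 h library Top2b had 304 CPM in early meiotic cells and 0.802 in pachytene cells. Aurkc, the meiotic Aurora kinase, had 6.38 CPM in differentiating spermatogonia and 61.2 in pachytene cells. Mcm8, a helicase of meiotic recombination, had 77.1 CPM in early meiotic cells and 1.26 in pachytene cells.

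Further pathway genes were counted from lists of 42 replication and 49 mitosis genes. In Sertoli-like cells 27 of 42 and 42 of 49 were lower at 144 than at 0 h and none was higher. Hmmr, a spindle protein, had 46.9 and 1.14 CPM, while Zwint, a kinetochore protein, had 129.5 and 177 CPM. These counts stand against 20.1% lower and 10.8% higher of all features. From 144 to 350.4 h, 5 of 42 and 23 of 49 were higher, against 13.7% of features, so the replication list was near that share. In germ cells 20 of 42 and 10 of 49 were higher at 144 than at 0 h, against 16.0% of features, and the mitosis list was near that share. The highest ratio of the replication list was that of Ticrr, an origin firing factor, at 7.14 (5.78 to 8.91).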

How the data were processed

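The 36 genes and all lists were chosen with earlier results of these data known. The deposited values are raw UMI counts of genes in barcodes, written by software of version 3.0.2 per the file headers. The submitters' processing notes name mm10 and Seurat 4.3.0.1 but not what each was for. The aligner was not given in the sources used here. Cells with at least 1000 UMIs, 500 genes and under 20% mitochondrial UMIs were kept, and a doublet score over 0.25 was removed. Clusters came from Leiden partitioning (python-igraph 0.11.9, resolution 2, 3000 variable genes, 40 components, 15 neighbours) without the 36 genes and their pathway lists, and were named by marker lists. Samples were grouped by time from their titles. UMIs were summed per class and library, so cells were not used as replicates, and ratios have exact conditional binomial intervals, shares exact Clopper-Pearson ones; 3 counts stand for 0 in ratios. All 36 genes were described; from the further pathway lists the 2 highest and 2 lowest ratios of a comparison could be named, and the examples among these and the paralogues were chosen with their values in view. The ratio step was tested on simulated data. Precision is set by 1198991 to 34424531 UMIs in the Sertoli-like sums and 21150323 to 108644028 in germ sums. Comparisons of single somatic classes and of further germ stages were added after the classes were seen.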

Additional observations from a re-analysis of the deposited data

Results flagged for a closer look

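Of the 36 genes, 14 were at least 2-fold lower in Sertoli-like cells and at least 2-fold higher in germ cells at 144 against 0 h; the difference between the classes was not tested. Of 13322 features measured in both, 2.28% met both calls. They were Birc5, Bub1, Cdc45, Cdc6, Gmnn, Mcm2, Mcm5, Mki67, Nuf2, Plk1, Rrm1, Rrm2, Spc24 and Top2a.

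Cells outside the comparisons also held these transcripts. Red-blood-cell-like barcodes at 0 h had 1302 CPM of the mitosis genes and 854 CPM of the replication genes. Unnamed cells had 3490 CPM of the mitosis genes at 350.4 h, 2174 CPM at 556.8 h and 1306 CPM at 763.2 h.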

How the results depend on the processing

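Of 186 alternative values for counts and shares, 153 stayed within 1.5 times or within the interval. For Sertoli-like cells, genes higher at 350.4 than at 144 h numbered 18, and 9 with at least 5000 UMIs per cell, 9 without clusters of a median under 2000 UMIs and 5 with doublets kept. Genes lower at 556.8 than at 350.4 h numbered 2, and 1 with at least 5000 UMIs, with 5% free RNA taken away, after division by the median ratio, with at least 100 UMIs or without the shallow clusters, 4 with under 50% mitochondrial UMIs and 5 with doublets kept. Other somatic genes lower at 144 h numbered 10, and 3 with at least 5000 UMIs, 1 with doublets kept, 20 at resolution 1, 25 with equal weight per cell and 22 with free RNA taken away. Other somatic against Sertoli-like genes lower at 0 h numbered 7, and 13 with at least 5000 UMIs, 14 with under 50% mitochondrial UMIs, 2 at resolution 1, 3 with marker UMI classes and 3 after division by the median ratio. With equal weight per cell, germ genes lower numbered 6 at 350.4 and 1 at 763.2 h, and 4 were higher than in Sertoli-like cells at 0 h. Early meiotic genes lower than in undifferentiated spermatogonia at 144 h numbered 13, and 5 with under 50% mitochondrial UMIs, 7 with doublets kept and 4 with marker UMI classes. Round spermatid genes lower numbered 12 with marker UMI classes. Thinned to 5000 UMIs, Sertoli-like shares were 30.8% (0 h) and 5.76% (144 h) for Top2a and 19.9% (0 h) for Mki67. In the 100 bases before the start 3 genes held E2F-type and 7 held CHR matches. Without 10 myoid cells 0 genes were lower in place of 13, and 16 were higher. The cause was not tested. Marker UMI classes and the 10% mitochondrial limit gave no value for Sertoli-like cells at 556.8 h, nor did resolution 1 for early meiotic cells at 144 h. No paired analysis was possible because each time has 1 library.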
